A study of Homo sapiens with 3 samples.

Results

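In LNCaP cells, 3512 regions of acetylated H3K27 carried methylated H3K4 only in their middle, with both ends of the acetylated stretch free of it. They were chosen by their measured overlap with the deposited H3K4me1 list: a region of chromosomes 1 to 22, at least 1000 bp and under 10000 bp wide, whose midpoint bin of 50 bp lay in an H3K4me1 region while the first bin and the last bin did not. The whole H3K27ac list held 71078 regions, of which 69160 lay on these chromosomes and 53689 met the width limits. The 3512 regions were thus 6.54% of the 53689 (exact 95% interval 6.33% to 6.75%), and this share follows from the rule. They are called centre-only regions here, and the H3K4me1 region over their midpoint is called the inner H3K4me1.

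H3K27ac is laid down by the acetyltransferases CBP and p300 and marks nucleosomes around active enhancers and promoters. H3K4me1 is written mainly by the methyltransferases KMT2C and KMT2D, is found at enhancers whether or not they are active, and often extends beyond the acetylated nucleosomes. Around strong promoters H3K4me3 takes the place of H3K4me1 next to the start site and H3K4me1 lies to the sides, so an acetylated region with H3K4me1 inside and none at its ends is the opposite of that promoter layout.

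LNCaP is an androgen-responsive line from a metastasis of human prostate carcinoma. The chromatin came from crosslinked cultures for which the labels give no treatment, with 1 library and 1 region list for each mark, and an input library that was not analysed here. With 1 library per mark there was no replicate spread and no test, so every interval covers counting error over regions, which are not independent of their neighbours. Without read counts in the files the depth is unknown, and a position outside a list may still carry the mark. Positions are hg19, counted from 1. Copy number, which is abnormal in this line, was not corrected for.

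The other 50177 regions of the same width limits served for comparison, sorted by the same 3 bins. H3K4me1 lay over the centre and both ends in 22576 (42.0%), over the centre and 1 end in 12878 (24.0%), over both ends but not the centre in 2565 (4.78%) and over 1 end alone in 5388 (10.0%). In 962 regions (1.79%) it lay inside but missed all 3 bins, and 5808 (10.8%) had none. Over all widths the centre-only arrangement was commoner than its mirror image, both ends without the centre, by 3512 to 2565. The order was the other way from 3000 to under 3500 bp (300 to 314), 3500 to under 4000 bp (186 to 192) and 4500 to under 5000 bp (66 to 77). In every other class of 500 bp centre-only regions were the more numerous. The median centre-only region was 2150 bp wide, with quartiles of 1700 and 3050 bp, against 1900 bp over all 53689 regions and 1400 bp for those without H3K4me1.

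The share of centre-only regions grew with the width of the acetylated stretch up to about 2 kb and changed little up to 5000 bp. Above that it was somewhat higher, with an interval that overlapped those of the classes before it. It was 3.40% (3.12% to 3.70%) among regions of 1000 to under 1500 bp and 6.74% (6.32% to 7.18%) from 1500 to under 2000 bp. From 2000 to under 3000 bp it was 8.28% (7.83% to 8.74%), from 3000 to under 5000 bp 8.25% (7.66% to 8.86%), and from 5000 to under 10000 bp 9.75% (8.62% to 11%). The narrowest H3K4me1 region of the list was 550 bp wide, so a narrow acetylated region leaves little room for one that clears both ends. Over the same width classes the share covered at the centre and both ends stayed between 40.7% and 44.3%, whereas the share without H3K4me1 went from 20.7% to 0.555%.

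**Figure D1:**
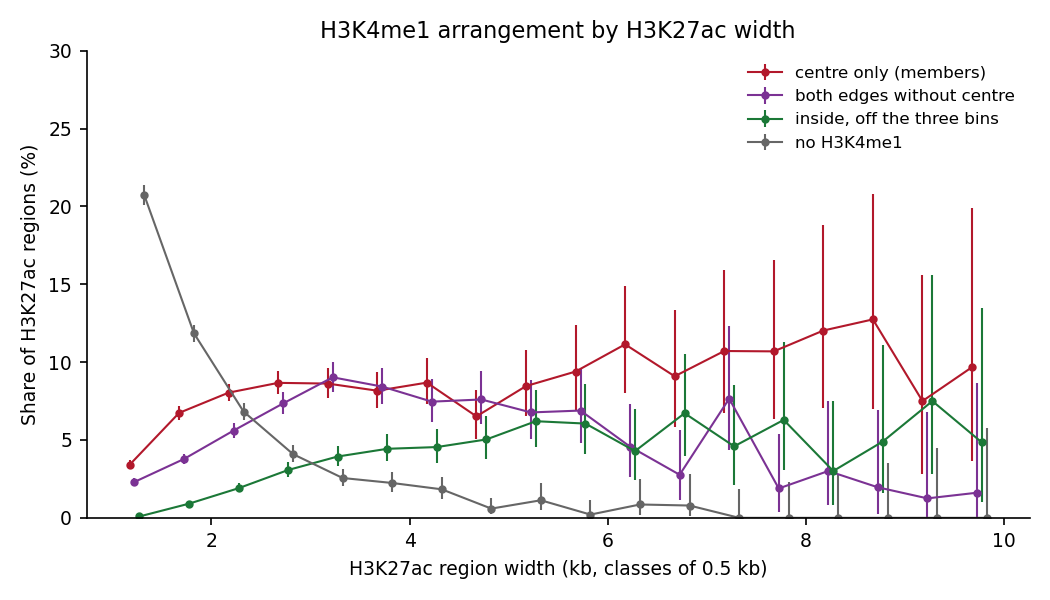
Share of H3K27ac regions (vertical axis, %) with 4 H3K4me1 arrangements, by H3K27ac width in classes of 0.5 kb (horizontal axis, kb); points are shares, bars exact 95% intervals over regions, and points are set side by side for legibility. The centre-only share climbs from 3.40% in the first class to 8.04% at 2000 to under 2500 bp, while the share without H3K4me1 drops.

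The inner H3K4me1 was a region set inside a wider acetylated stretch, as the rule requires. Its median width was 1150 bp (quartiles 900 and 1700 bp, range 550 to 7450 bp), and it covered a median of 56.8% of the H3K27ac region (quartiles 44.4% and 71.8%). It was under 1000 bp wide in 1062 regions (30.2%), from 1000 to under 2000 bp in 1818 (51.8%) and 2000 bp or more in 632 (18.0%). In all, centre-only regions spanned 9.12 Mb, of which the inner H3K4me1 took 54.8% and any H3K4me1 61.2%. Other H3K4me1 regions had a median width of 1100 bp wholly within H3K27ac, 1950 bp partly in it and 900 bp without it. The rule caps the values of the inner region, since it must lie wholly inside the acetylated one.

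Wider acetylated regions held wider inner H3K4me1, but not in proportion. The median inner width was 800 bp at 1000 to under 1500 bp of H3K27ac, 1050 bp at 1500 to under 2000 bp, 1300 bp at 2000 to under 3000 bp, 1900 bp at 3000 to under 5000 bp and 2550 bp above that. The covered share went the other way, from a median of 65.5% in the narrowest class to 53.7% in the middle class and 40.1% in the widest. Across the 3512 regions Spearman's rho was 0.67 between H3K27ac width and inner width and -0.23 between H3K27ac width and covered share. These are descriptions within 1 pair of libraries, and the rule bounds both quantities by the H3K27ac width.

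The acetylation reached past the H3K4me1 on each side. The uncovered stretch had a median of 400 bp on the left and 400 bp on the right, and both stretches together 900 bp (quartiles 500 and 1400 bp). The shorter of the pair had a median of 200 bp and the longer of 650 bp, and in 1528 regions (43.5%) the longer was at least 3 times the shorter. The inner H3K4me1 was thus often off centre, with a median of 175 bp between the middles of the marks. No side was favoured strongly: the left stretch was the longer in 1712 regions, the right in 1630, and they were equal in 170.

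How near the inner H3K4me1 came to an end decides membership, so values on either side of that limit are given as a description. The shorter uncovered stretch was a single bin of 50 bp in 584 centre-only regions, which had a median H3K27ac width of 1825 bp and a median gap of 6650 bp to the next H3K27ac region. Just outside the rule were 694 regions whose inner H3K4me1 ended exactly at 1 end, with a median width of 1800 bp and a median gap of 8350 bp. Also just outside were 90 regions covered at the centre and 1 end, with H3K4me1 in no more than the end bin there. Their median width was 2300 bp and their median gap 4525 bp, so the gaps outside lay on either side of 6650 bp. At the lower width limit, 26 centre-only regions were 1000 bp wide, and 23 regions of the same pattern were 950 bp wide and left out, with median gaps of 10975 and 11700 bp. At the upper limit, 12 were at least 9000 bp wide, and 9 regions with the pattern exceeded the limit by at most 1000 bp and were left out, with median gaps of 1275 and 600 bp.

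Most centre-only regions held a single H3K4me1 region. A further one lay inside 426 of them (12.1%, interval 11.1% to 13.3%), with exactly 2 in 343 and 3 or more in 83. The background over all 53689 regions was 21.7%, and other regions of the same widths held several in 27.2%, a count that the covered ends of most of them help to fill. The 426 were wide, with a median of 4450 bp against 2050 bp for the 3086 with a single one. In them the inner H3K4me1 covered a median of 37.3% and all H3K4me1 together 67.1%. Among centre-only regions of 5000 bp or more, 176 of 246 (71.5%) held several, so most of that size held a broken row of H3K4me1 regions. No share at that size is given for the other regions, so it is not called a trait of the pattern.

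The inner H3K4me1 had low scores more often than H3K4me1 regions of its width outside H3K27ac, and about as often as, or less often than, those touching H3K27ac. The score is the authors' deposited value per region, unnamed, with 13 levels from 0.001 to 0.093, and is lower in wider regions. A score of 0.003 or less was carried by 1265 inner regions (36.0%, interval 34.4% to 37.6%), against a background of 27.9% of the 197700 H3K4me1 regions on these chromosomes. Weighted to the same widths, it was carried by 36.8% (36.4% to 37.3%) of H3K4me1 regions lying partly in H3K27ac. The matched share was 39.3% (38.3% to 40.3%) for the other 9839 H3K4me1 regions wholly within H3K27ac, above the interval of the inner ones. It was 27.5% (27.1% to 27.9%) for the 129868 H3K4me1 regions without H3K27ac, below that interval.

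By width class, the difference from H3K4me1 regions without acetylation was largest at intermediate widths, though widths were not matched inside a class. At 1000 to under 1500 bp, 31.7% (29.2% to 34.3%) of inner regions had a score of 0.003 or less, against 14.6% (14.2% to 14.9%) of those without H3K27ac. The inner regions were also wider there, with medians of 1150 and 1050 bp, and the part of width was not tested. At 1500 to under 2000 bp the shares were 58.0% (53.5% to 62.3%) and 44.4% (43.4% to 45.4%), with a median width of 1700 bp in each. In both classes the inner regions also stood below the other H3K4me1 regions wholly in H3K27ac, at 37.2% (35.6% to 38.7%) and 69.4% (66.7% to 71.9%). H3K4me1 regions partly in H3K27ac stood at 35.1% (34.3% to 35.9%) and 64.2% (63.2% to 65.2%). Under 1000 bp no H3K4me1 region of any of these classes had so low a score. The highest levels, 0.05 or more, were carried by 449 inner regions (12.8%), which were the narrow ones: the median inner width was 650 bp at a score of 0.081 and 1800 bp at 0.003.

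**Figure D2:**
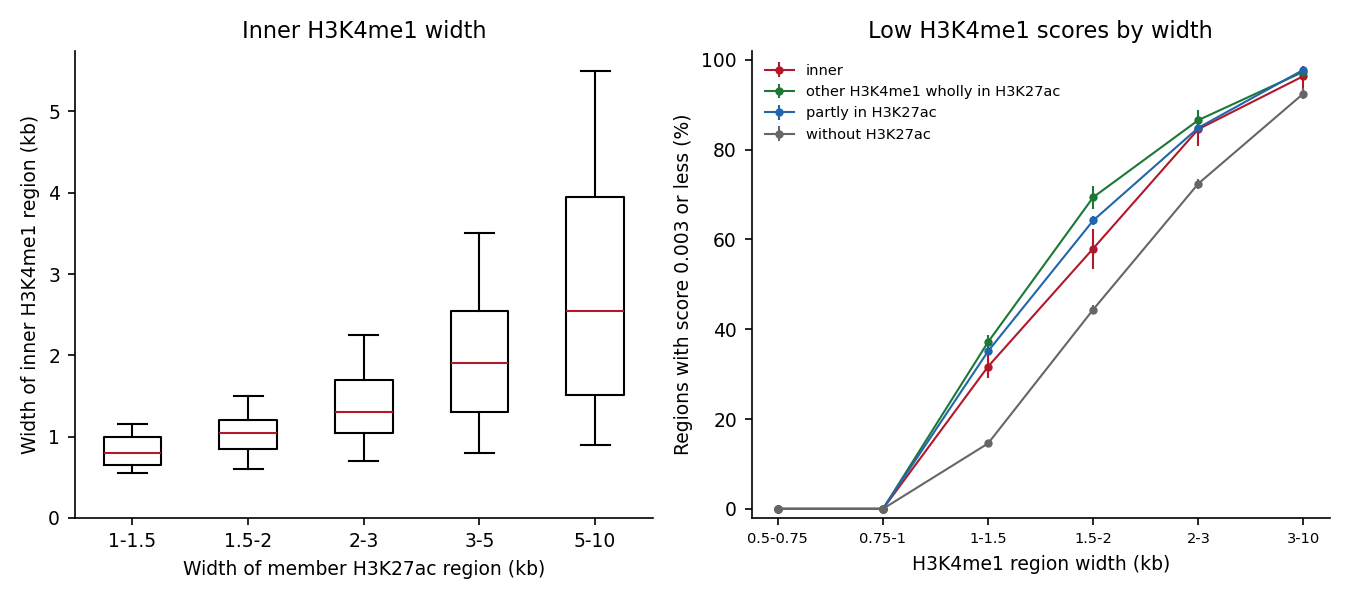
Left, width of the inner H3K4me1 (kb) in 5 classes of H3K27ac width (kb); boxes show quartiles and median, whiskers the 5th and 95th percentiles. Right, share of H3K4me1 regions with a score of 0.003 or less (%) by H3K4me1 width (kb) for 4 classes of H3K4me1 region, with exact 95% intervals. From 1 kb to 3 kb inner regions run above H3K4me1 regions without H3K27ac, and from 1 kb to 2 kb below those wholly in H3K27ac. Widths are not matched inside a class.

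The acetylation of centre-only regions was scored much like that of other regions of the same widths. The H3K27ac score was at or below the list median of 0.009 in 3002 of them (85.5%, interval 84.3% to 86.6%), against 75.0% of all 53689 regions, which are narrower. At matched widths the other regions stood at 86.2% (85.9% to 86.5%), inside the interval. Regions with H3K4me1 over the centre and both ends stood a little higher, at 88.3% (87.9% to 88.7%), and regions without H3K4me1 lower, at 79.6% (78.3% to 80.9%). The lowest score, 0.001, was carried by 21.6% (20.3% to 23%) of centre-only regions, by 24.3% of those covered at the centre and both ends and by 12.8% of those without H3K4me1. The small difference from all other regions turned positive, to 1.35 percentage points, when regions were matched on chromosome and width class, so no direction is given for it. That matching used width classes in place of exact widths, and the part of this coarser match was not tested.

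Centre-only regions lay somewhat farther from other acetylated regions than the pooled other regions of equal width did, a direction that depended on which regions they were compared with. The median gap to the nearest H3K27ac region was 6400 bp (interval 5900 to 6800 bp, quartiles 2200 and 16300 bp), and the width-matched median of the other regions was 5350 bp. It was 4600 bp for regions covered at the centre and both ends, 5600 bp with the centre and 1 end, 6350 bp with 1 end alone and 7800 bp without H3K4me1. With H3K4me1 inside but off the 3 bins it was 8400 bp, the largest of these. Centre-only regions therefore stood next to the regions with 1 covered end and between the fully covered and the H3K4me1-free ones. The difference of 1050 bp from the pooled others was 500 bp (0 to 900 bp) with matching on local H3K4me1 and width class. Regions with both ends free were the 5808 without H3K4me1 and the 962 with it inside but off the 3 bins. Against these the difference was -1200 bp (-1700 to -800 bp), with centre-only regions the closer to other acetylated regions. Both intervals are that of the centre-only median, with the compared median taken as fixed.

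In clustering, too, centre-only regions stood between the fully covered and the H3K4me1-free regions. Another H3K27ac region lay within 10 kb of 2192 centre-only regions (62.4%, interval 60.8% to 64.0%), against a background of 64.0% over all 53689 and 66.1% (65.6% to 66.6%) of the others at matched widths. The matched share was 69.9% (69.3% to 70.6%) with the centre and both ends covered, 65.4% (64.5% to 66.3%) with the centre and 1 end, 61.2% (59.8% to 62.7%) with 1 end alone and 56.2% (54.0% to 58.4%) without H3K4me1. It was 56.1% (51.3% to 60.9%) with H3K4me1 inside but off the 3 bins. Acetylated neighbours within 10 kb on both sides were found for 20.0% (18.7% to 21.4%) of centre-only regions and 23.5% of the matched others. No other H3K27ac region within 50 kb was found for 251 (7.15%, 6.32% to 8.05%), against 4.99% (4.80% to 5.19%). A comparison added after the data were seen took only regions whose ends were likewise free of H3K4me1. By count, most of these are the H3K4me1-free class above (5808, against 962 with H3K4me1 inside). There the direction was opposite: 57.1% of those had a neighbour within 10 kb.

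Centre-only regions lay in neighbourhoods with less H3K4me1, far beyond their own ends. From 100 to 200 kb away, a distance the rule does not touch, H3K4me1 covered a mean of 12.3% of the length around them, against 16.5% around the width-matched others, 19.8% around regions covered at the centre and both ends and 9.37% around regions without H3K4me1. From 5 to 10 kb away the means were 15.2%, 22.3%, 28.5% and 9.76%. For H3K27ac the groups lay closer together: from 100 to 200 kb away it covered 7.31% around centre-only regions, 8.22% around the matched others and 6.91% around regions without H3K4me1. Regions with 1 covered end and a bare centre had nearly the same surroundings as centre-only regions, with 12.4% H3K4me1 and 7.31% H3K27ac at that distance. Regions with H3K4me1 inside but off the 3 bins had 9.46% and 6.35%, near those without H3K4me1.

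**Figure D3:**
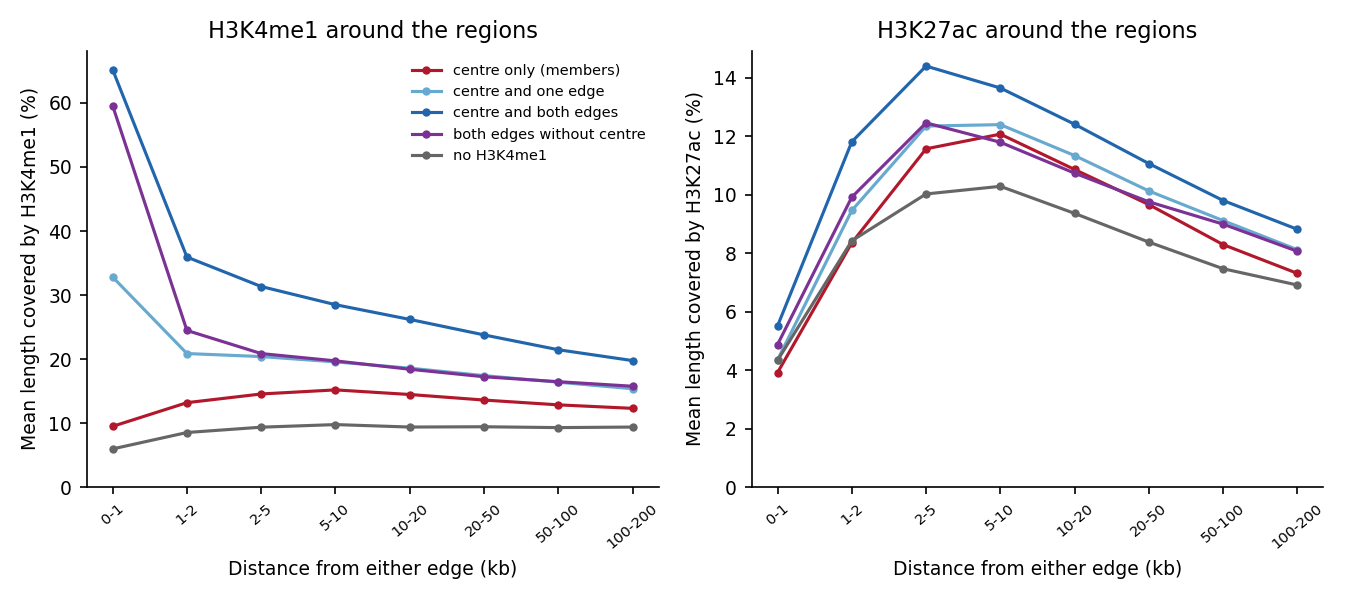
Mean share of the length covered by H3K4me1 (left) and by H3K27ac (right), in %, in 8 distance classes from either end of the H3K27ac region (kb, classes of unequal size), for 5 arrangements of H3K4me1 weighted to the widths of the centre-only regions. Centre-only regions run between the fully covered regions and those without H3K4me1 in the H3K4me1 panel at every distance.

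When regions were compared within surroundings of like H3K4me1, the difference in clustering shrank. The 53689 regions were put into 5 groups of nearly equal size by H3K4me1 cover 100 to 200 kb away. In the group with the least cover, 49.9% of centre-only regions had an acetylated neighbour within 10 kb, against 51.5% of the others at matched widths. In the next groups the pairs were 62.2% and 61.2%, 65.0% and 68.1%, 73.9% and 71.9%, and in the group with the most cover 75.7% and 76.4%. The sign thus varied from group to group, and with matching on these groups and on width class the overall difference was -0.70 percentage points (interval of the centre-only share about it -2.33 to 0.90) in place of -3.69. The share with an acetylated neighbour itself rose over these groups, so local H3K4me1 and local acetylation cannot be told apart here. The part of local H3K4me1 in the spacing was not tested.

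The share of centre-only regions itself was highest where H3K4me1 was sparse. It was 9.54% (8.99% to 10.1%) in the group of regions with the least H3K4me1 100 to 200 kb away, then 8.23%, 6.36% and 5.10%, and 3.49% (3.15% to 3.85%) in the group with the most. Over the same groups the share covered at the centre and both ends went from 20.2% to 61.8%, and the share without H3K4me1 from 23.6% to 3.69%. Median H3K27ac width went from 1700 to 2100 bp over these groups, and its part in these shares was not tested.

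Chromosomes differed in the same sense. The share was highest on chromosome 6, at 288 of 3212 regions (8.97%, interval 8.0% to 10%), and lowest on chromosome 19, at 33 of 1432 (2.30%, 1.59% to 3.22%). Chromosome 4 (8.82%) and chromosome 18 (8.70%) were also high, and chromosomes 22 (2.93%), 17 (3.18%), 20 (3.25%) and 16 (3.83%) were low. Across the 22 chromosomes Spearman's rho with H3K4me1 length per Mb was -0.75, a description across chromosomes of 1 cell line that share both libraries. Chromosome 16 went against the order of H3K4me1 density: with 112 kb of H3K4me1 per Mb, as on chromosome 5, it had 3.83% against 8.14% there. The inner H3K4me1 varied less, with medians from 1050 bp on chromosomes 7, 13 and 21 to 1400 bp on chromosome 19.

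**Figure D4:**
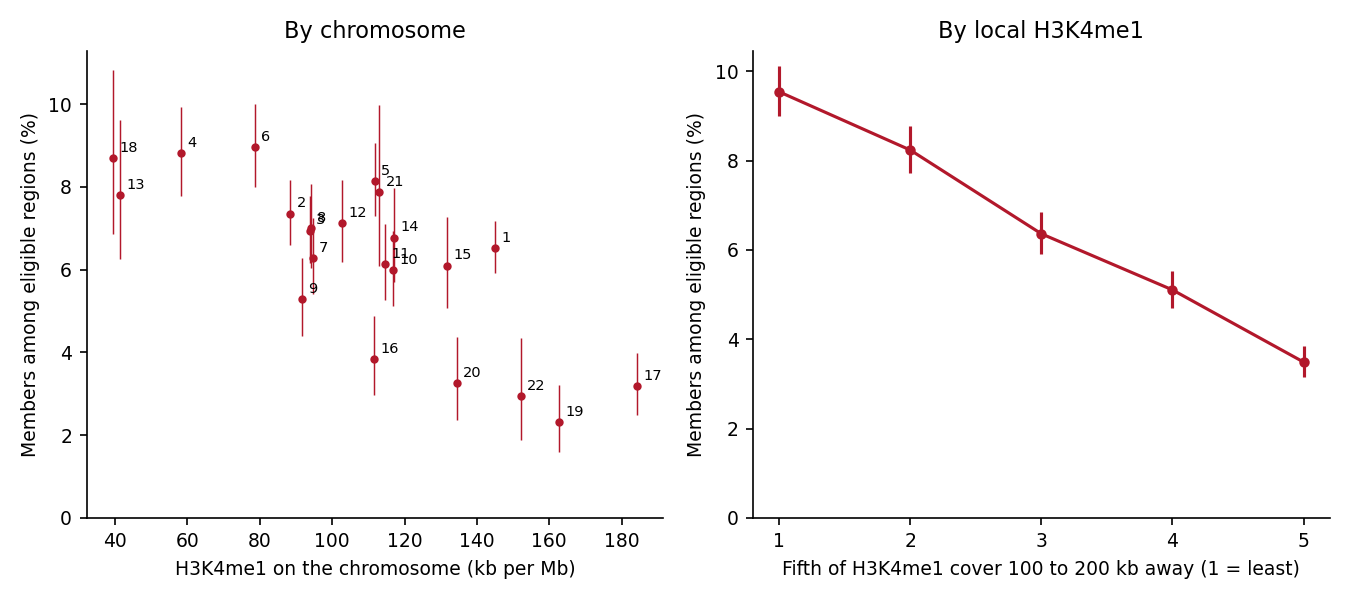
Share of centre-only regions among H3K27ac regions of 1000 to under 10000 bp (vertical axes, %) against H3K4me1 length per Mb for each of 22 chromosomes (left, numbers name chromosomes) and in 5 groups by H3K4me1 cover 100 to 200 kb away (right); bars are exact 95% intervals over regions. The share goes from 9.54% in the sparsest to 3.49% in the densest group, and chromosomes 16, 17, 19, 20 and 22 lie lowest.

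H3K4me1 just outside the acetylated ends was scarce by the rule's own doing and is described only. The nearest outer H3K4me1 region lay a median of 2600 bp away (quartiles 750 and 7500 bp). One was within 2 kb of 1553 centre-only regions (44.2%, interval 42.6% to 45.9%), where the background over all regions was 87.0% because most have H3K4me1 crossing an end. Among regions without H3K4me1, whose ends are free by definition too, the width-matched share was 31.9% (29.8% to 34.0%). Outer H3K4me1 lay within 2 kb on both sides in 285 centre-only regions (8.12%), which thus had H3K4me1 in the middle and close by on either side. The matched share was 61.0% for the pooled others, 4.44% with H3K4me1 inside but off the 3 bins and 3.71% without H3K4me1. For 664 centre-only regions (18.9%) there was no outer H3K4me1 within 10 kb. The matched share was 3.55% for the pooled others, 25.6% with H3K4me1 inside but off the 3 bins and 28.7% without H3K4me1. For 536 (15.3%) there was neither outer H3K4me1 nor another H3K27ac region within 10 kb, a share not given for the other regions.

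**Figure D5:**
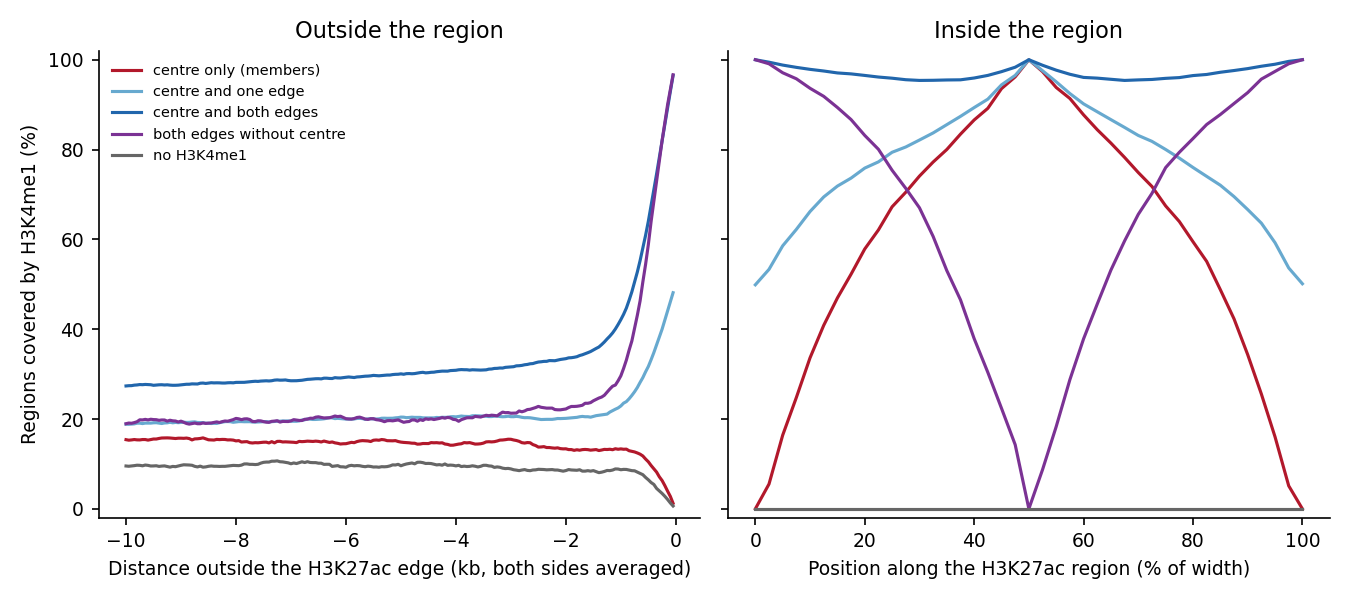
Share of regions covered by H3K4me1 (vertical axis, %) outside the H3K27ac ends (left, distance in kb, both sides averaged) and along the H3K27ac region (right, position in % of its width), for 5 arrangements weighted to the same widths. The values at the 2 ends and at 50% of the width are fixed by the rule; outside, centre-only regions level off near 15.4% at 10 kb.

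Isolated centre-only regions were narrower, with smaller inner H3K4me1, than those among other acetylated regions. With another H3K27ac region within 2 kb (829 regions), the median H3K27ac width was 2500 bp and the inner width 1250 bp. With the nearest over 50 kb away (251 regions) these were 1900 and 1050 bp. The link of width to spacing was not particular to centre-only regions. From the narrowest to the widest class of H3K27ac width, the median gap went from 9000 to 2725 bp in them and from 7350 to 2200 bp in the others. The covered share of centre-only regions hardly differed between the near and the remote group, at 54.3% and 56.9%. Inner scores of 0.003 or less went from 41.1% in the near group to 25.5% in the remote group, and several inner H3K4me1 regions from 19.3% to 4.38%. These shares were not matched on width, and the part of width in them was not tested. The 536 regions with neither mark nearby had a median inner width of 1050 bp and low inner scores in 24.4%.

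A centre-only neighbour was commoner beside centre-only regions than beside the pooled other regions of their width, though most neighbours were of other kinds. The nearest region of the width limits lay within 10 kb and was itself centre-only in 214 cases (6.09%, interval 5.32% to 6.94%), against a background of 3.48% and 3.36% (3.18% to 3.53%) of the matched others. Among those with such a neighbour, it was centre-only for 11.1% (9.69% to 12.5%), against 5.67% (5.36% to 5.97%). Matching on local H3K4me1 and width class gave a difference of 2.42 percentage points, and matching on chromosome and width class 2.50. Against regions whose ends were likewise free of H3K4me1, most of them without any, it was 0.51, so no difference is called there. The interval about it, -0.26 to 1.35, is that of the centre-only share, with the compared share taken as fixed. Beside regions without H3K4me1 a centre-only neighbour was found for 5.75% (4.72% to 6.77%), or 11.2% (9.29% to 13.1%) of those with a neighbour, values whose intervals overlap those of centre-only regions. Beside regions with 1 end alone covered the values were 5.08% (4.40% to 5.76%) and 9.53% (8.25% to 10.8%), whose intervals overlap those of centre-only regions too. Beside regions with H3K4me1 inside but off the 3 bins the values were 3.54% (2.34% to 4.74%) and 7.52% (4.96% to 10.1%). The first value was 4.36% with the centre and 1 end covered, and 3.07% with both ends but not the centre. A centre-only neighbour was least frequent beside regions covered at the centre and both ends, at 1.90% (1.70% to 2.10%).

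Even so, most centre-only regions were the only one of their cluster. Clusters were built by linking H3K27ac regions separated by no more than 10 kb, and 1320 centre-only regions (37.6%) formed a cluster alone. The others lay in clusters with a median of 3 regions, where 47.7% (45.6% to 49.8%) were the widest region of the cluster, against 45.6% (45.0% to 46.2%) of the matched others. They were less often in the interior of a cluster, at 32.1% (30.2% to 34.1%) against 35.6% (35.0% to 36.2%). Neither value was particular to them. The matched interior share was 32.6% with 1 end alone, 33.2% with both ends but not the centre and 30.2% without H3K4me1. In the same order, 48.3%, 47.3% and 46.9% were the widest of their cluster. With the centre and both ends covered the interior share was 37.3%, and with the centre and 1 end 35.2%. A single centre-only region was held by 3036 clusters, 2 by 174, 3 by 32 and 4 by 8. Neighbouring centre-only regions were a median of 360975 bp apart, and 176 of 3490 neighbouring pairs (5.04%) lay within 10 kb.

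No cluster held more than 4 centre-only regions, and the first 3 of the 8 with 4 in genome order are described. On chromosome 3 from 71142401 to 71214250, 10 H3K27ac regions included 4 centre-only ones of 3500, 4650, 5850 and 2600 bp. Their inner H3K4me1 regions were 1200, 850, 3600 and 1650 bp wide, and the second was scored 0.081 although its acetylated region was scored 0.002. A longer cluster on chromosome 3 from 176752351 to 176931500 had 4 among 45 regions, as 2 adjacent pairs: at its start, regions of 2700 and 3250 bp, and further in, regions of 3700 and 8450 bp that lay 350 bp apart. The cluster on chromosome 5 from 102593401 to 102620750 was small, and 4 of its 5 regions were centre-only, with widths of 2500, 1200, 5450 and 3400 bp. In these clusters H3K4me1 covered 62.6%, 61.9% and 63.7% of the H3K27ac length.

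In the widest centre-only regions the inner H3K4me1 covered a small share and was 1 of several H3K4me1 regions. The widest was on chromosome 18 from 55408001 to 55417900 (9900 bp), with an inner H3K4me1 from 55412001 to 55415050 that covered 30.8% and 2 further H3K4me1 regions. On chromosome 12 from 81533601 to 81543450 (9850 bp) the inner region covered 26.9% among 4 H3K4me1 regions. The lowest share of the 5 widest was on chromosome 21 from 17363951 to 17373800 (9850 bp), where 1050 bp, or 10.7%, lay in the inner of 5 H3K4me1 regions. The other two were on chromosome 2 from 100085051 to 100094700, with 14.0% covered, and on chromosome 11 from 95320401 to 95330050, with 40.9%. All of these 5 had the lowest H3K27ac score, 0.001, and another H3K27ac region within 3350 bp.

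The regions with the widest inner H3K4me1 were of another kind, almost filled by it. The widest inner region, 7450 bp, lay on chromosome 5 within the acetylated stretch from 172423751 to 172432100 and left 750 bp bare on the left and 150 bp on the right. It was followed by 7250 bp on chromosome 5 from 57369551 to 57377800, 7100 bp on chromosome 4 from 42654551 to 42662450, 6950 bp on chromosome 22 from 25526001 to 25534500 and 6900 bp on chromosome 10 from 74030801 to 74038450. These covered between 81.8% and 90.2% of their H3K27ac regions, and all had an inner score of 0.003. In each of them at least 1 bare end was no longer than 150 bp, a distance of a few bins from being covered to an end. The region on chromosome 4 differed from the other four in being remote, with 47.65 kb to the next H3K27ac region.

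The most remote centre-only regions were narrow. On chromosome 15 from 88020851 to 88022150 (1300 bp), the next H3K27ac region was 528 kb away, and an inner H3K4me1 of 900 bp left 200 bp on each side. On chromosome 2 from 104002601 to 104004400 (1800 bp) the gap was 444.4 kb and the nearest outer H3K4me1 116.15 kb away, with an inner region of 1500 bp scored 0.003. On chromosome 4 from 12422351 to 12424200 (1850 bp) the gap was 438.7 kb, and the inner region had the smallest width of the list, 550 bp, with a score of 0.081. All 3 had an H3K27ac score of 0.009, the list median.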

How the data were processed

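Per the labels' protocols, crosslinked chromatin was sonicated and sequenced as single-end reads, and the submitters' processing notes name Bowtie 0.12.8 and hg19. For the caller, its threshold and any use of the input: not given in the sources used here. Both deposited lists give a chromosome, start, end and an unnamed score per region, on a grid of 50 bp, with no counts. Lower scores were taken as the more stringent, within a list only.

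The members and lists were chosen with earlier results of these data known. Each H3K27ac region was classed by its first, midpoint and last bins. Other regions were weighted to the exact widths of the members (for scores, to the inner H3K4me1 widths), without random draws. Shares of members have exact Clopper-Pearson 95% intervals, medians order-statistic intervals and weighted shares normal intervals; all cover counting error only. Gaps run between nearest ends. The code was checked against a count by position on 600 simulated regions. Named regions are the 5 widest, the 5 with the widest inner H3K4me1, the 3 most remote, the 3 clusters with most members (ties in genome order) and extreme chromosomes; further chromosomes were named after their values were seen. Genes and sequences were not assigned, as the gene tables used are of GRCh38 and coordinates were not converted. Alternatives were other score limits, merged H3K4me1, wider ends, other distances and, added after seeing the data, other matchings. Python 3.11.15 was used with scipy 1.17.1, matplotlib 3.10.9, numpy 2.4.6 and pandas 2.3.3.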

Additional observations from a re-analysis of the deposited data

How the results depend on the processing

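Of 54 alternative values, 26 stayed within the interval of the reported value, 22 left it and 6 changed sign. Differences are centre-only regions minus width-matched others, in percentage points unless given in bp. With H3K4me1 scores under 0.05, the member share was 6.11%, inner width 1250 bp, covered share 58.5% and the difference in outer H3K4me1 within 2 kb -53.1. With both lists at or below their median scores, inner width was 1450 bp, covered share 59.8% and the outer difference -61.2. With H3K4me1 merged within 500 bp, the member share was 6.03%, inner width 1200 bp, covered share 59.7%, the difference in joined clusters -5.55, in gap 1600 bp and in outer H3K4me1 -54.0. With ends of 200 bp, 1863 members gave a share of 3.47%, inner width 1100 bp and covered share 48.5%, so the number of members depends on how far the ends must be free. The difference in lowest H3K27ac scores was -2.05, and in outer H3K4me1 within 1 kb -59.8.

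The added matchings were run for the 5 comparisons with other H3K27ac regions. Those on local H3K4me1 and on chromosome used width classes, which match width less closely than exact widths. On local H3K4me1 and width class, the differences were 1.23 for low H3K27ac scores (reported value -0.72), -0.70 for joined clusters, 500 bp for the gap and -44.6 for outer H3K4me1. On chromosome and width class, that for low H3K27ac scores was 1.35. Against regions with free ends, the differences were 3.86 for low H3K27ac scores, 5.31 for joined clusters, -1200 bp for the gap, 10.2 for outer H3K4me1 and 0.51 for a centre-only neighbour. These comparison regions leave out those with H3K4me1 at an end, which had the closest neighbours, and most of them had no H3K4me1 at all. No paired analysis was possible because only 1 library was made per mark. Unknown depth and an unknown calling threshold limit what a bare end means.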
